A study of Mus musculus with 2 samples.

Results

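Single-cell ATAC-seq records which parts of the genome the Tn5 transposase can enter in single nuclei. The regions described here are the 1000 whose lowest level in any cell type of the study was highest, of 107377 regions in all (0.931%). They were chosen by the level of each region in 16 profiles, 1 for each of 8 cell types in each of 2 libraries. A level is the number of cells of the profile in which the region was found, divided by all detections of those cells and multiplied by 1000000, where a detection is 1 region found in 1 cell. The score of a region was its lowest level over the 16 profiles, and the 1000 highest scores were taken, so that high and even levels in these profiles are how the regions were chosen and not a finding.

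Mediobasal hypothalamus was taken at postnatal day 8, and its GFP-positive cells were sorted. The mice of the Nfia/b/x-deficient library were Nfialox/lox, Nfiblox/lox and Nfixlox/lox, so that both alleles of 3 genes were floxed, beside Rax-CreER and the reporter CAG-lsl-Sun1-GFP. In the control library, the mice carried Rax-CreER and CAG-lsl-Sun1-GFP alone, so both groups shared the driver and the nuclear GFP reporter. Rax-CreER acts in tanycytes, the radial glia-like cells that line the floor and lower walls of the third ventricle, and the reporter stays on in their progeny, which sets the cells that could be sampled. How many animals went into a library, and when recombination was induced, is not stated in the labels. Each genotype had 1 library, so no test between genotypes was possible, no p-value is given, and variation between animals was not measured.

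Chromatin that is open in all cell types of a tissue is best known at the promoters of genes that every cell uses and at many binding sites of the insulator protein CTCF. Enhancers, in contrast, tend to open in few cell types. NFIA, NFIB and NFIX are DNA-binding factors of the nuclear factor I family, known in the brain for their part in the formation of glia. The files number the regions and do not pair the numbers with positions or genes. Whether a region is a promoter or an enhancer was therefore not analysed here, the cell type names could not be set against their defining marker genes, and recombination at the 3 floxed genes was not measured.

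There were 61678629 detections over 13337 cells of the deficient library (median 4042 per cell) and 50973118 over 8948 cells of the control library (median 4549.5 per cell). The profiles of the rule ranged from 133 cells (ependymal cells of the control library) to 4902 cells (alpha2 tanycytes of the deficient library). The libraries had 204 cell barcodes in common. Leaving out the cells with these barcodes moved the shares of detections given below by less than their counting error. Intervals are exact 95% intervals and cover counting error only: they treat detections as independent and leave out differences between cells and animals.

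The 1000 regions made up 6.74% of all detections of both libraries. A member was found in 5723 to 18294 of 22285 cells, with a median of 7367 cells (33.1% of cells), against a median of 496 cells over all regions. The median score was 54.8 per 1000000 over the members and 1.30 over all regions. The set overlapped largely, though not wholly, with the most detected regions: 832 of the 1000 members were among the 1000 most detected regions of the series. Another 912 regions were found in at least as many cells as the least detected member and were not members. These serve below as a comparison of often detected regions, which share the lower limit of cells with the members but were not matched to them on abundance. In deficient alpha2 tanycytes the 912 regions took 5.08% of detections and the 1000 members 6.71%.

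The score dropped steeply over the first few regions and then slowly, with no break at the edge of the set. Region 43752 had a score of 129.9, the next region (69521) had 92.7 and the third (93705) 91.6. The last member, region 35055, had 47.649, and the first region outside, region 81456, had 47.627. Both edge regions had their lowest level in alpha1 tanycytes, at 110 control cells for region 35055 and at 140 deficient cells for region 81456, so 1 cell more or fewer could have exchanged them.

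**Figure D1:**
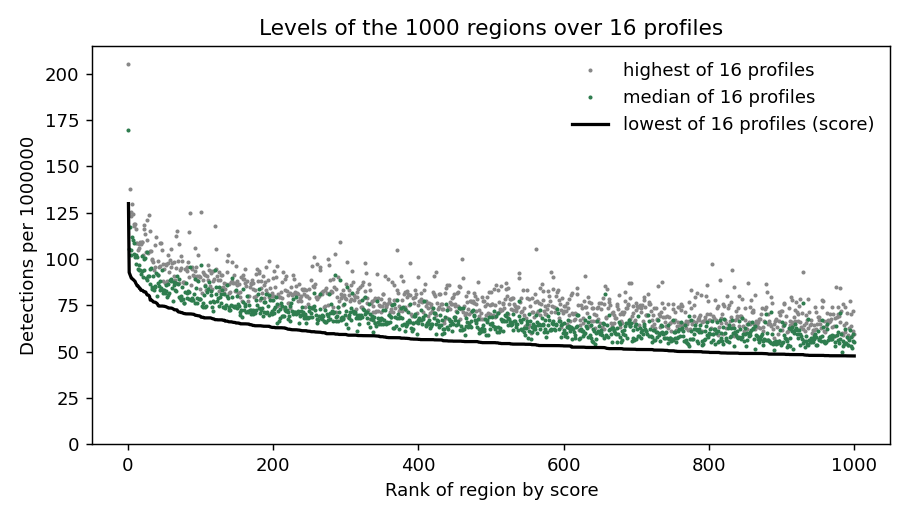
Levels of the 1000 regions in detections per 1000000, ordered by score. The line is the lowest, the green points the median and the grey points the highest of the 16 profiles; the first region stands apart at a score of 129.9, and the scores of the others lie between 92.7 and 47.6.

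Region 43752 was found in more cells than any other region of the series, 18294 (82.1%). In the deficient library its level was lowest in astrocytes (153.9 per 1000000), had a median of 188.2 over the 8 types and was highest in beta2 tanycytes (205.3). In the control library the lowest was again astrocytes (129.9), the median 158.1 and the highest beta1 tanycytes (178.3). In beta2 tanycytes it was found in 929 of 1003 deficient cells and in 863 of 904 control cells.

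How often the region was seen depended on how many detections a cell had. In the deficient library it was present in 49.1% of cells with under 2000 detections, 73.5% of those with 2000 to 4000, 89.3% at 4000 to 6000, 96.3% at 6000 to 8000, 98.4% at 8000 to 10000 and 99.5% above. In the control library the shares in the same bands were 51.1%, 74.0%, 91.2%, 96.5%, 98.3% and 100%, the last being 1154 of 1154 cells (interval 99.7 to 100%). In the deepest cells of both libraries the region was thus found in nearly every cell.

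The same held for the set as a whole. The median member was found in 11.9% of the shallowest deficient cells (under 2000 detections) and in 65.2% of the deepest (10000 or more), and in 12.6% and 74.1% of the control cells of these bands. Even the least detected member was present in 50.2% of the deepest deficient cells and 60.7% of the deepest control cells. A single cell showed a median of 291 of the 1000 regions in the deficient library (5th to 95th percentile 121 to 597) and 337 in the control library (129 to 767). No cell lacked the set: the lowest number was 52 of 1000 regions in a deficient cell and 61 in a control cell.

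The 1000 regions took a smaller share of detections in deeper cells. Presence is counted at most once per cell and region, so a region that is already present cannot add to a deeper cell. The share was 7.91% in deficient cells with under 2000 detections and 5.72% in those with 10000 or more, and 8.34% and 5.36% in control cells of these bands. Across cells, the share and the logarithm of depth had a Pearson r of -0.61 in the deficient library (13337 cells) and -0.74 in the control library (8948 cells). Both measures share the cell's depth, and cells are not replicates.

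**Figure D2:**
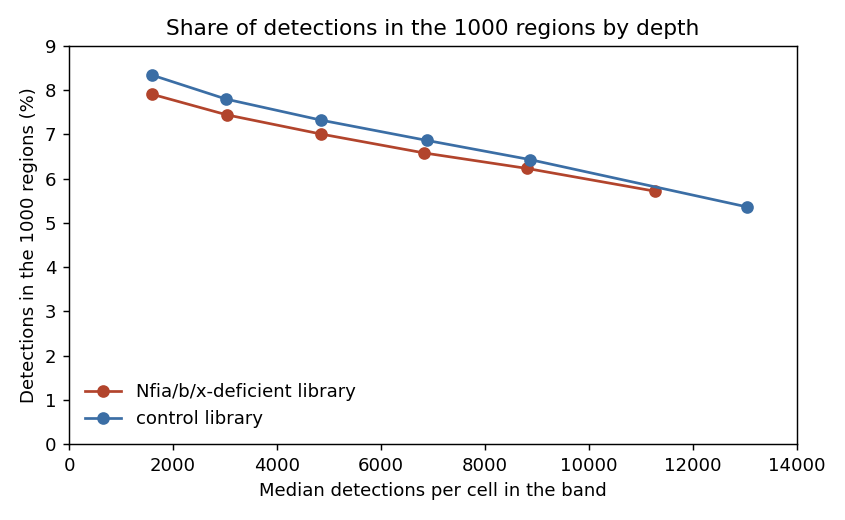
Share of all detections that fell in the 1000 regions (%, y axis) in 6 bands of detections per cell, placed at the median depth of each band (x axis), with cell types pooled. The deficient library (red) lay below the control library (blue) in each of the 5 bands under 10000 detections, and both were lower at higher depth.

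Between cell types, the set was close to level. The median member ranged over the 8 types from 62.1 (ependymal cells) to 68.9 (neurons) per 1000000 in the deficient library and from 61.8 (ependymal cells) to 69.4 (neurons) in the control library. Neurons gave the highest share of detections to the set, 7.10% in the deficient library (interval 7.09 to 7.12%) and 7.06% in the control library (7.04 to 7.09%). The ciliated ependymal cells that line the ventricle gave the lowest, 6.42% (6.38 to 6.47%) and 6.26% (6.21 to 6.31%). Between neurons and ependymal cells depth differed as well: neurons had a median of 3305 deficient and 3343 control detections per cell, and ependymal cells 4172 and 6036. Depth did not order all types. Deficient alpha2 tanycytes (4585) and astrocytes (4615) were deeper than deficient ependymal cells and had higher shares (6.71% and 6.68%).

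Among cells of 4000 to 6000 detections, ependymal cells were still the lowest of 9 types in the deficient library, at 6.47% (6.39 to 6.55%, 76 cells). In the control library they were at 7.14% (7.01 to 7.27%, 30 cells), above alpha1 tanycytes, at 6.86% (6.80 to 6.93%, 127 cells). In the bands of 2000 to 4000 and 6000 to 8000 detections, deficient ependymal cells were again the lowest of the 8 types, at 6.75% and 6.22%. Control ependymal cells had 7.37% and 6.65% in these bands and were not the lowest in either. Alpha2 tanycytes of the control library, next to lowest with all cells (6.46%), had the highest share in this band (7.51%, 7.49 to 7.53%). The order of the types in the control library therefore changed with depth.

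**Figure D3:**
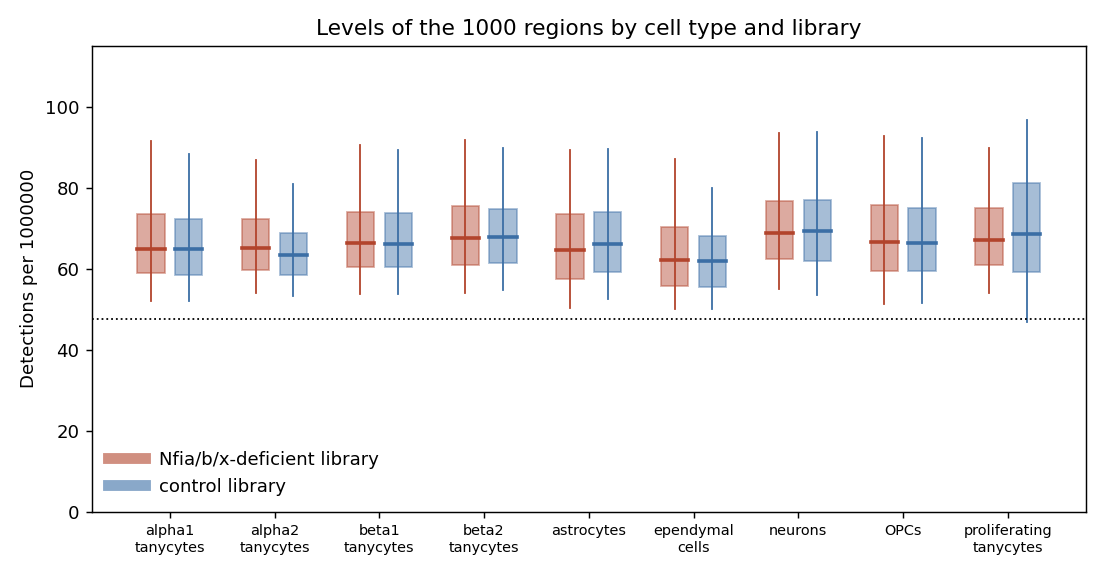
Levels of the 1000 regions (detections per 1000000, y axis) in each cell type, deficient library in red and control library in blue. Boxes span the 25th to 75th percentile of regions, thick bars are medians and thin lines run from the 5th to the 95th percentile; the dotted line is the lowest score of any member, and proliferating tanycytes, which the rule left out, are at the right.

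Over the 16 profiles, the highest level of a member was a median of 1.36 times its lowest, and 848 of the 1000 members stayed under 1.5 times. No member reached 2 times. Of the 912 regions as often detected, 434 stayed under 1.5 times and 102 (11.2%) reached 2 times or more. The most detected of these 912, region 107372, was found in 10170 cells but ranged from 36.8 per 1000000 in control beta2 tanycytes to 141.1 in deficient ependymal cells. Region 27155, the next, ran from 40.2 in deficient beta2 tanycytes to 97.3 in deficient alpha1 tanycytes. Such regions, found in many cells but weak in 1 or more types, were among those the rule left out. The median ratio over the 912 regions was 1.51, and some fell just below the edge, as region 81456 did.

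The lowest level of a member fell most often in a small type. Ependymal cells held the lowest level of 447 members, and astrocytes, ependymal cells and oligodendrocyte precursor cells (OPCs, the dividing precursors of myelin-forming cells) together that of 748 (74.8%). In the 912 regions as often detected these 3 types held the lowest level of 665 (72.9%), a share close to that of the members. These 3 types had the fewest cells of the 8, and their levels had the largest counting error. The highest level fell in neurons for 320 members, in OPCs for 254 and in alpha2 tanycytes, the largest type, for 5. Alpha2 tanycytes seldom held it in the 912 regions as often detected either, with 11 in the deficient and 2 in the control library. In those regions it fell in deficient neurons for 78 and control neurons for 144, and in deficient OPCs for 79 and control OPCs for 80.

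The most even member was region 90198, found in 6429 cells. In the deficient library it ranged from 53.9 (beta2 tanycytes) over a median of 56.6 to 59.5 (neurons), and in the control library from 55.4 (ependymal cells) over 56.9 to 60.2 (OPCs), a ratio of 1.12 from highest to lowest. Region 82204 followed at 1.15, with 56.8 to 65.4 in the deficient and 57.6 to 65.3 in the control library. In region 90198 no type stood apart in either library.

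At the other end stood 2 members that were strongest in beta2 tanycytes, the tanycytes over the median eminence. Region 42448 had 97.5 per 1000000 in beta2 tanycytes of the deficient library, against a lowest level of 49.5 in OPCs (ratio 1.97 over all profiles), and 89.7 in beta2 tanycytes of the control library, against 59.4 in OPCs. Region 73707 had 105.4 in deficient and 100.5 in control beta2 tanycytes, with its lowest levels in OPCs (54.9) of the deficient and neurons (53.7) of the control library. Both regions were thus open in every type and still leaned to the same type in both libraries.

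Leanings of this kind were compared between libraries, as the log2 ratio of a member's level in 1 type to its mean in the other 7 types of the same library, with 1 added to each level. Deficient and control cells are different cells, so a leaning seen in both is not shared counting error. Leanings were taken over all cells and not at like depth, so an effect of depth common to both libraries was not tested. In neurons the leanings of the 1000 members had a Pearson r of 0.75 between the libraries, in beta2 tanycytes 0.56, in beta1 tanycytes 0.55 and in alpha2 tanycytes 0.50. They were less alike in OPCs (0.34), alpha1 tanycytes (0.31), astrocytes (0.26) and ependymal cells (0.19). The counting error of a leaning was larger in the small types: 0.14 on the log2 scale in ependymal cells of either library, against 0.047 in deficient and 0.075 in control neurons. In ependymal cells the SD of the leanings over members was also 0.14 in both libraries, while in neurons it was 0.13 in the deficient and 0.18 in the control library. These values are across regions of the same annotation, which are not independent replicates, and carry no p. In each of the 8 types the r was higher over the 912 regions as often detected, with the lowest in ependymal cells (0.30) and the highest in beta2 tanycytes (0.83). The rule, applied to these same levels, limited how far members could vary between types, so nothing is read from their lower r.

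**Figure D4:**
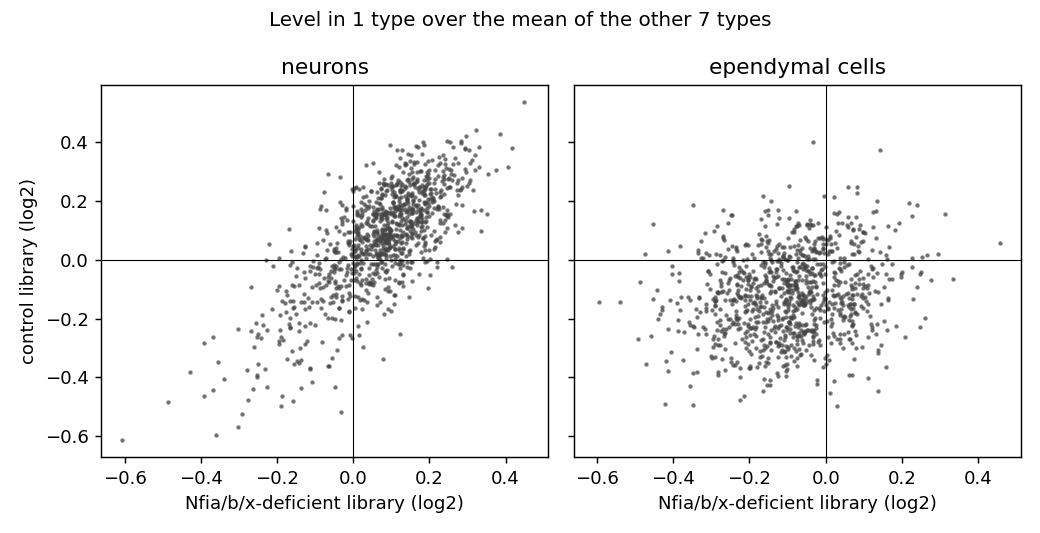
Each point is 1 of the 1000 regions: the log2 ratio of its level in neurons (left) or ependymal cells (right) to its mean in the other 7 types, in the deficient library (x axis) against the control library (y axis). In neurons the points follow the diagonal (r = 0.75), and in ependymal cells they form a cloud with most points below 0 on both axes (r = 0.19).

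Leanings were small. At 1.25-fold or more in both libraries, 5 of the 1000 members were higher and 8 lower in neurons than in the mean of the other types, as were 12.9% and 23.8% of all regions. In beta2 tanycytes 6 were higher and 1 lower (16.1% and 29.7% of all regions), in OPCs 6 and 3 (12.8% and 23.8%), and in ependymal cells 0 and 9 (13.1% and 15.3%). In astrocytes 3 were higher and 1 lower (11.1% and 17.8%), and 1 more passed in opposite directions in the libraries. In alpha1 tanycytes 2 were higher and 0 lower (10.5% and 18.1%), in beta1 tanycytes 1 and 0 (10.1% and 15.4%), and in alpha2 tanycytes 0 and 0 (4.9% and 10.2%). Of the 912 regions as often detected, 9 were higher and 73 lower in neurons, 22 and 37 in beta2 tanycytes, 24 and 35 in OPCs, and 5 and 40 in ependymal cells. The members were chosen for high levels in every type, so nothing is read from their lower counts. Chosen after its values were seen, region 47595 leaned most to neurons: it had 93.4 per 1000000 in neurons, against a mean of 68.2 in the other types, in the deficient library, and 97.5 against 66.9 in the control library. Region 49399, also chosen after its values were seen, leaned furthest away from neurons. Its level there was 48.4 against 74.2 in the deficient and 49.97 against 77.0 in the control library. It was strongest in alpha1 tanycytes (92.2 in deficient and 93.1 in control cells).

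Within a library, the spread over the 8 types exceeded counting error for most members. The coefficient of variation of a member over types had a median of 7.99% in the deficient library, where counting presence in the cells of each type gives 6.73%, and 8.53% in the control library, where it gives 6.51%. The ratio of observed to counting variance had a median of 2.26 in the deficient and 2.49 in the control library, and was over 2 for 570 (57%) and 615 (61.5%) of the 1000 members. In the 912 regions as often detected the median ratios were 2.44 in the deficient and 2.29 in the control library, and 545 (59.8%) and 524 (57.5%) were over 2, close to the members. The rule selected for low spread, so these values describe the choice.

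Cells were also assigned to types from the members alone. When each cell was given to the most likely type profile of its own library, built from cells other than those assigned, the 1000 members placed a mean over types of 24.8% of deficient cells (9 types) and 31.4% of control cells (8 types) in their own type, where an even split gives 11.1% and 12.5%. The 912 regions as often detected placed 39.2% of deficient and 45.3% of control cells, and all regions placed 66.5% and 66.8%. Even from all regions, the type recognised worst had 46.2% of its deficient or 16.5% of its control cells placed correctly. Neurons were recognised best from the members, 51.0% of deficient and 61.2% of control neurons. From the members, the type recognised worst had 8.07% of its cells placed correctly in the deficient and 6.77% in the control library, below an even split. How the authors named the types is not stated, and these regions may have entered it, so the shares are a description.

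At an equal depth of about 900000 detections per profile, levels of the 1000 members correlated between profiles with r from 0.47 to 0.70 across regions. Neurons, OPCs, astrocytes and beta2 tanycytes were each closest to the same type in the other library, in both directions, with r of 0.67, 0.69, 0.70 and 0.67. Alpha1 and alpha2 tanycytes were closest to another tanycyte subtype in both libraries. Deficient beta1 tanycytes were closest to deficient alpha2 tanycytes (0.69), while control beta1 tanycytes were closest to deficient beta1 tanycytes (0.67). Deficient neurons had a median r of 0.57 with the other types of their library and control neurons 0.50. Single members have few detections at this depth, which limits r.

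Proliferating tanycytes were left out of the rule and so give values it did not use. This class held 1033 cells in the deficient library and 63 in the control library, so it came almost wholly from deficient cells. The members had a median of 67.1 per 1000000 in deficient proliferating tanycytes (interval of the median 66.4 to 68.1) and 68.6 in control ones, against medians of 4.15 and 3.12 over all regions. In the deficient cells 997 of the 1000 members (99.7%) reached the lowest score of any member, as did 95.6% of the 912 regions as often detected and 2.69% of all regions. In the control cells, where that level corresponds to 15.3 cells, 945 members (94.5%) reached it. So did 80.3% of the 912 regions as often detected and 3.104% of all regions. The members were found in 10 to 49 of the 63 control cells (median 22) and none was at 0, while 30.2% of all regions were.

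The levels in deficient proliferating tanycytes were also close to those of the other types, one by one. The ratio to the median of the 8 other types of the library had a median of 1.02, ran from 0.915 to 1.13 between the 5th and 95th percentiles, and lay within 1.25-fold for 996 members. In the 912 regions as often detected these percentiles were 0.910 and 1.21. The lowest member, region 98358, had 45.03 per 1000000 in proliferating tanycytes, against 64.6 in the other types (ratio 0.697), and was found in 228 of 1033 cells. Region 43752 was again the highest, at 165.5, against 188.2 in the other types.

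The libraries also allowed the choice to be made in 1 and measured in the other. The 1000 regions chosen in the 8 types of the control library had a median lowest level of 57.4 per 1000000 there and 56.6 in the deficient library, where 776 were still at or above the edge of 50.05, as were 0.888% of all regions. Chosen in the deficient library, they had 57.2 there and 56.5 in the control library, where 800 were at or above the edge of 49.5, as were 0.956% of all regions. The 2 choices shared 791 of 1000 regions. Measured in the deficient library, none of those chosen in the control library ranged over 2-fold between types, and in the reverse case 4 did. The share of other regions past 2-fold was not taken beside these counts, so nothing is read from them.

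Between genotypes, no member differed by 2-fold or more in any of the 8 types, and all 1000 members had the 50 detections over both libraries that were required. Fold changes are log2 ratios of the level plus 1, deficient over control. In alpha1 tanycytes 4.9% of the regions tested passed 2-fold in either direction. In alpha2 tanycytes 4.11% did, in beta1 tanycytes 3.92% and in beta2 tanycytes 3.91%. The shares were 11.6% in neurons, 0.636% in astrocytes, 0.407% in ependymal cells, 1.1% in OPCs and 3.46% in all tanycytes together. The rule held each member at a high level in both libraries, and scarce regions have more counting error, so the count of 0 is a description of the choice. Among the 912 regions as often detected, which the rule did not hold level, 2 passed 2-fold in neurons, 2 in beta2 tanycytes, 2 in ependymal cells, 3 in OPCs, 1 in astrocytes and none in alpha1, alpha2 or beta1 tanycytes.

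In alpha2 tanycytes 1 member was 1.25-fold or more higher and 1 lower in the deficient library, where 22.6% of all regions tested were higher and 18.2% lower. In neurons 14 members were 1.25-fold or more higher and 2 lower, where 28.7% of all regions were higher and 20.1% lower. In alpha1 tanycytes 13 members were higher and 13 lower (17.5% and 20.3% of all regions), in beta1 tanycytes 0 and 0 (22.5% and 17.4%), and in beta2 tanycytes 0 and 4 (17.9% and 18.1%). The small types had the most: 47 higher and 26 lower in ependymal cells (11.3% and 16.3% of all regions), 39 and 46 in OPCs (14.6% and 16%), and 17 and 31 in astrocytes (10.8% and 16.9%). In these 3 types the SD of the log2 ratio over members did not exceed counting error: it was 0.18 in ependymal cells, 0.19 in OPCs and 0.16 in astrocytes, where counting error gives 0.20, 0.20 and 0.18. The SD of the log2 ratio over members was 0.072 in alpha2 tanycytes and 0.12 in neurons, where counting error gives 0.038 and 0.089. In the regions as often detected the SD was 0.11 in alpha2 tanycytes and 0.19 in neurons.

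In all tanycytes together, the median member was slightly higher in the deficient library with all cells, and lower in cells of like depth. This pool included 1033 deficient and 63 control proliferating tanycytes, so the mix of subtypes differed between the libraries. The median log2 ratio was 0.034 with all cells (722 of 1000 members above 0), beside 0.069 over all regions tested. By type it was 0.045 in alpha2, 0.010 in alpha1, 0.0032 in beta1 and 0.0038 in beta2 tanycytes. It was 0.026 in ependymal cells, 0.0030 in neurons, -0.027 in astrocytes and -0.0083 in OPCs. For the pool, matching on depth changed the sign. When equal numbers of cells per library were drawn within each type and each step of 500 detections, the pooled median was -0.065 (160 of 1000 above 0). Over all regions tested it was 0.098. This alternative was chosen after seeing the data. The set took 6.78% of detections in deficient and 6.59% in control tanycytes with all cells, and 6.71% and 7.02% in the 6688 cells per library matched on depth. The direction thus turned with the cells compared. Genotype, library and any difference in preparation cannot be told apart with 1 library per genotype.

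At matched depth the share of the set was lower in the deficient library in each of the 9 types. The log2 ratio was -0.079 (-0.082 to -0.076) in alpha2 tanycytes, -0.083 (-0.10 to -0.063) in ependymal cells, -0.065 (-0.092 to -0.037) in proliferating tanycytes and -0.059 (-0.074 to -0.044) in astrocytes. It was -0.054 in neurons, -0.051 in beta2, -0.044 in beta1 and -0.018 (-0.029 to -0.0075) in alpha1 tanycytes, and -0.025 (-0.041 to -0.010) in OPCs. In bands of 2000 detections under 10000 with at least 20 cells per library, over the 8 types of the rule, the deficient share was lower in 33 of 36 combinations of type and band. The exceptions were alpha1 tanycytes under 2000 and at 2000 to 4000 detections and OPCs under 2000.

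**Figure D5:**
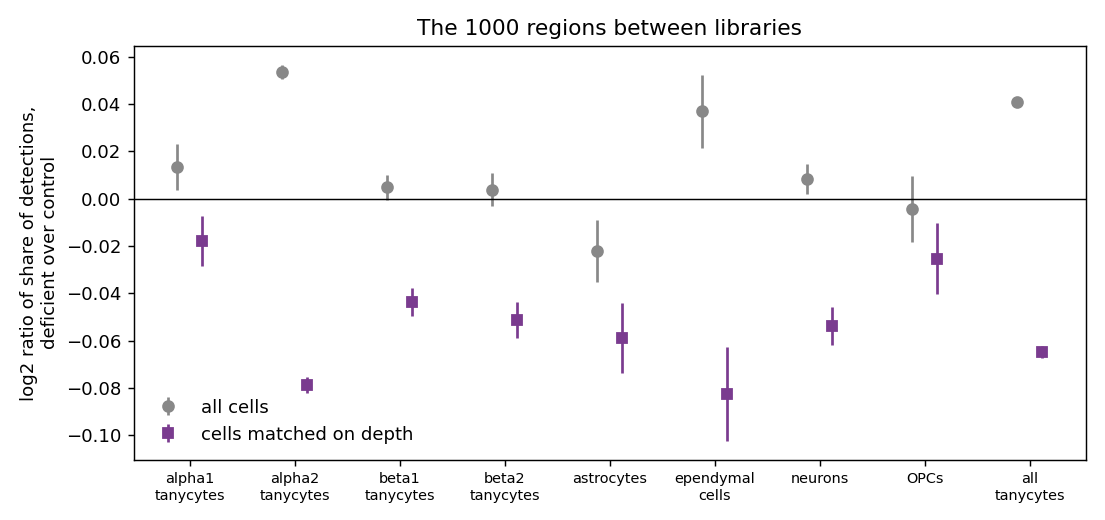
Log2 ratio of the share of detections in the 1000 regions, deficient over control library (y axis), in each cell type and in all tanycytes, with exact 95% intervals for counting error. With all cells (grey circles) the values lie between -0.022 and 0.054, and in cells matched on depth (purple squares) they lie between -0.083 and -0.018.

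Other often detected regions were lower at matched depth too. In all tanycytes of matched depth the 912 regions as often detected took 5.04% of deficient and 5.26% of control detections (log2 ratio -0.061, -0.064 to -0.058), against -0.065 (-0.068 to -0.062) for the members. The 53636 regions found in fewer cells than the median region took 13.7% of deficient and 12.3% of control detections (0.15, 0.150 to 0.154). In neurons the picture differed: at matched depth the scarce regions took 15.3% in the deficient and 15.8% in the control library (-0.050), and the members had a lower ratio (-0.054, -0.062 to -0.046) than the regions as often detected (-0.023, -0.032 to -0.013). Shares of 1 whole are not independent of each other.

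Single members that stood furthest from equal between the libraries in all tanycytes were the following. Region 105559 had 71.8 per 1000000 in deficient and 57.7 in control tanycytes, a log2 ratio of 0.31 (0.24 to 0.39), and was higher in the deficient library in 8 of 8 types. Region 88436 had 90.6 in deficient and 74.5 in control tanycytes (0.28, 0.21 to 0.35), again higher in 8 of 8 types. In single types the difference could be close to 0: region 105559 had 65.76 in deficient and 65.69 in control OPCs, and region 88436 had 76.1 in deficient and 75.8 in control astrocytes. At matched depth their ratios were 0.20 (0.12 to 0.29) and 0.16 (0.083 to 0.23).

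Region 11147 had the lowest ratio, with 55.7 in deficient and 68.6 in control tanycytes (-0.30, -0.38 to -0.23). It was lower in the deficient library in 7 of 8 types, the exception being ependymal cells, with 64.5 in deficient and 59.7 in control cells. Region 98959 had 69.7 in deficient and 82.5 in control tanycytes (-0.24, -0.31 to -0.18), also with ependymal cells as the exception (78.2 in deficient and 70.3 in control cells). At matched depth the ratios were -0.42 (-0.51 to -0.34) and -0.38 (-0.46 to -0.31). The direction of all 4 regions was the same with and without matching. The matched cells are part of the tanycytes in which these regions were picked as extremes, so this is a description. The tanycyte subtypes among the 8 types are parts of the same pool.

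In region 43752 the level was higher in the deficient library, while the direction of the share of cells depended on the type. Its level was 173.9 per 1000000 in deficient and 146.9 in control tanycytes, and higher in the deficient library in 8 of 8 types. With types pooled, the share of cells that had it was lower in the deficient library, at 80.7% of all deficient and 84.1% of all control cells. The share was also lower in alpha2, beta1 and beta2 tanycytes, ependymal cells and neurons. It was higher in alpha1 tanycytes (87.9% of deficient and 83.7% of control cells) and astrocytes (78.0% and 70.2%). OPCs (65.7% and 62.5%) and proliferating tanycytes (81.1% and 77.8%) were also higher. At 4000 to 6000 detections, with types pooled, the region was found in 89.3% of deficient cells (88.2 to 90.3%) and 91.2% of control cells (90.0 to 92.4%).

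Cells of 1 type and like depth differed in how much of their signal fell in the set by more than counting error. Among alpha2 tanycytes of 4000 to 6000 detections, the share had a median of 7.07% and an SD of 0.604 percentage points over 1419 deficient cells, where counting error gives 0.370, and a median of 7.52% and an SD of 0.645 over 1011 control cells, where it gives 0.379. The ratio of the SD to counting error ran over the 9 types from 1.46 in beta2 tanycytes to 2.02 in OPCs in the deficient library, and from 1.40 in beta2 tanycytes to 1.83 in beta1 tanycytes in the control library. Beta2 tanycytes were the most uniform type in both libraries by this measure.

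The members were spread over the whole numbering of the regions. They lay between rows 3 and 106373, with 70 to 132 members in each of 10 equal runs of rows, and a member was followed directly by another in 15 cases (1.5%), where members are 0.931% of all rows. The sources do not say what the order of rows stands for, so nothing on genome position is drawn from it.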

How the data were processed

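The authors deposited a matrix that lists which region was present in which cell, with no value beside it, and an annotation that gives each cell its library and type. Cell Ranger ATAC was run with its defaults, per the labels' protocols. The submitters' processing notes name MACS2, Seurat, Signac 0.2.5 and Cell Ranger 3.1, without roles, and the mm10 build. The calling of regions, the filters on cells, the treatment of doublets and the naming of types are not stated there. Cells of the matrix are unnamed and were matched to the annotation by order. Assignment of cells to type profiles, given in the results, was the check on this order. The check was weak for the control type recognised worst, with 16.5% of its cells placed correctly from all regions, where an even split gives 12.5%.

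The members and all comparisons were chosen with earlier results of these data known. Detections were summed per type and library and divided by all detections of the same cells. Region log2 ratios used a pseudocount of 1 per 1000000 and at least 50 detections. Shares have Clopper-Pearson intervals, ratios of shares conditional binomial intervals, and medians over regions or cells order-statistic intervals. Counting error of presence was taken as binomial over cells, and that of a cell's share as binomial over its detections. The regions described by number were the 2 highest scores, the regions at the edge, the 2 smallest and 2 largest spreads, and the 2 highest and 2 lowest ratios in all tanycytes; others are named as chosen later or as extremes of a stated measure. The rule and the ratios were tested on simulated data. Matching on depth drew 8108 cells per library. Alternatives are in the closing section. Computations used scipy 1.17.1, matplotlib 3.10.9, pandas 2.3.3 and numpy 2.4.6 under Python 3.11.15.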

Additional observations from a re-analysis of the deposited data

Results flagged for a closer look

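With all cells, the share of detections in the 1000 regions moved in opposite directions in astrocytes and alpha2 tanycytes. The log2 ratio of deficient over control was -0.022 in astrocytes (interval -0.035 to -0.0090; 6.68% in deficient and 6.78% in control astrocytes) and 0.054 in alpha2 tanycytes (0.051 to 0.057; 6.71% and 6.46%). The difference between the 2 types was not tested, since each rests on 1 library per genotype. At matched depth both were below 0, at -0.059 in astrocytes and -0.079 in alpha2 tanycytes.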

How the results depend on the processing

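No paired analysis was possible because each genotype has 1 library and no result comes from a test, and leaving out a replicate was not possible for the same reason. The share of detections in the set was 6.83% in the deficient and 6.64% in the control library. It was 7.03% and 7.10% with cells thinned to 2000 detections, which left out 1504 deficient and 887 control cells, and 6.73% and 7.03% with cells matched on depth, so both turned the order of the libraries. With members scored in the control library only the deficient share was 6.80%, and with members scored in the deficient library only the shares were 6.84% and 6.62%. Scoring by the lowest share of cells, which shared 867 members, gave 6.62% in the control library. No member passed 2-fold in any of the 8 types of the rule under the alternatives run, except with thinned cells: there 16 pairs of member and type with at least 50 detections passed, 7 in astrocytes, 6 in ependymal cells and 3 in OPCs. Without that minimum 8, 19 and 3 did, at a median of 66, 46 and 64 detections per member. In proliferating tanycytes, outside the rule, 6 members passed at matched depth, with no minimum and 62 cells per library. At a minimum of 200 detections the count was also 0, over as few as 18 members in a type. The median log2 ratio in all tanycytes (0.034) was -0.048 with median-of-ratios scaling, -0.023 in thinned cells, -0.065 at matched depth, and 0.029 and 0.040 with members scored in the control or the deficient library only. Of 48 alternatives for the single types 28 kept the sign, and values ran from -0.082 to 0.056; at matched depth all 8 were below 0. The median ratio of highest to lowest level was 1.69 with thinned cells and 1.52 with the same number of cells per type, which leave fewer detections per profile. With 500 or 2000 regions, a median cell had 32.2% or 25.7% of them in the deficient and 37.4% or 29.7% in the control library. Depth limits every share given here, since presence counts a region once per cell. A cause of the differences between libraries was not tested.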
